A study of Homo sapiens and Mus musculus with 99 samples.

Results

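Aeg-S/L, the proteins Aeg-S and Aeg-L given together, was tested on NCI-H1437 cells in a comparison that used 4 of the 99 RNA sequencing libraries of the series. The 4 were taken by the column names of 1 deposited count table: 2 libraries from cells given Aeg-S/L and 2 from cells given DPBS, a buffered saline used as the mock treatment. All were collected at 4 h in the experiment that the labels number 2. NCI-H1437 is an epithelial line from a non-small cell lung cancer, all groups grew in the same serum-containing medium, and the labels name no genetic change. The same experiment held 2 libraries each of Aeg-S alone, Aeg-L alone and Aeg-S/L with an addition labelled Tra, all 10 of which entered the fit. The labels state no dose for either protein. The design text of the series calls its replicates biological without naming separate cultures, so p-values measure the spread between these libraries. The comparison answers which genes of a lung epithelial line change early when the 2 proteins are present together.

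Pore-forming proteins open channels in the plasma membrane, through which calcium enters and potassium leaves the cell. Epithelial cells answer such injury by rapid transcription of immediate early genes, whose promoters are held ready and need no new protein synthesis, and by transcription of cytokines and chemokines under NF-kB, AP-1 and related factors. Many of these transcripts are short-lived, and the same pulse induces the proteins that end it, such as inhibitors of NF-kB, phosphatases of MAP kinases and factors that degrade mRNA.

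Libraries of the experiment held 33881637 to 37948758 counted fragments. Mitochondrial transcripts took 1.72% and 3.05% of the counts in DPBS 1 and 2, and 2.75% and 3.16% in Aeg-S/L 1 and 2. The root mean square log2 difference between the libraries of a pair was 0.555 for DPBS and 0.550 for Aeg-S/L, and the chi-square per degree of freedom of their counts was 18.7 and 9.23. The Aeg-S and Aeg-L pairs were wider by both measures, at 0.797 and 0.748 and at 136.1 and 118.1, with Aeg-S 2 and Aeg-L 2 apart from the rest. Those 2 libraries take no part in the Aeg-S/L contrast but enter the shared estimate of the spread, so counts of changed genes are given with and without them. All 10 epithelial markers were tested, and their summed level was 4747 and 4428 CPM (counts scaled to the same library size) in DPBS and 6058 and 5766 CPM under Aeg-S/L. Leukocyte markers summed to 31.1 and 26.8 against 36.9 and 36.2 CPM, nearly all of it CD14, with CD68 and MS4A1 at 0 in all 4 libraries. Endothelial markers summed to 4.52 and 3.87 against 6.61 and 7.28 CPM, where CDH5 rose by 0.99 ± 0.26. Its call ended with the offset for GC content given further on (adjusted p = 0.09317). Of the fibroblast markers, COL1A2, COL3A1, DCN and LUM were at 0 in all 4 libraries, while the collagen gene COL1A1 rose from 73.8 and 72.7 to 165.5 and 194.3 CPM.

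Aeg-S/L changed the expression of many genes within 4 h, with the largest changes upward. Of 16962 genes tested, 615 rose (3.63%) and 525 fell (3.1%) at an adjusted p under 0.05. Of the genes that rose, 437 did so at least 2-fold (a log2 change of 1 or more) and 58 at least 16-fold (a log2 change of 4 or more). The falls were smaller: 232 genes fell at least 2-fold and 5 at least 16-fold. The median log2 change was 1.33 among genes that rose and -0.95 among genes that fell. The genes that rose took 3.23% and 3.10% of all counts in the DPBS libraries and 8.81% and 8.74% in the Aeg-S/L libraries. The genes that fell went from 3.33% and 3.42% to 1.66% and 1.79%. Among the genes that rose, 55 had a mean under 1 CPM in DPBS, close to silence. In 614 of the 615 and in all 525, the 2 libraries of one group lay entirely above the 2 of the other. These genes were called on the same libraries, so the separation adds no support to the calls. Its share over all genes tested is not given. A fit of the 4 libraries alone called 3568 genes up (22.6%) and 3463 down (22%) of 15770, and 1139 of the 1140 calls were among them. Leaving Aeg-S 2 and Aeg-L 2 out of the larger fit gave 3149 and 3293, with all 1140 included. Leaving out 1 of the 4 libraries left 239 increases and 30 decreases without Aeg-S/L 1, 250 and 87 without Aeg-S/L 2, 247 and 90 without DPBS 1, and 216 and 54 without DPBS 2.

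**Figure D1:**
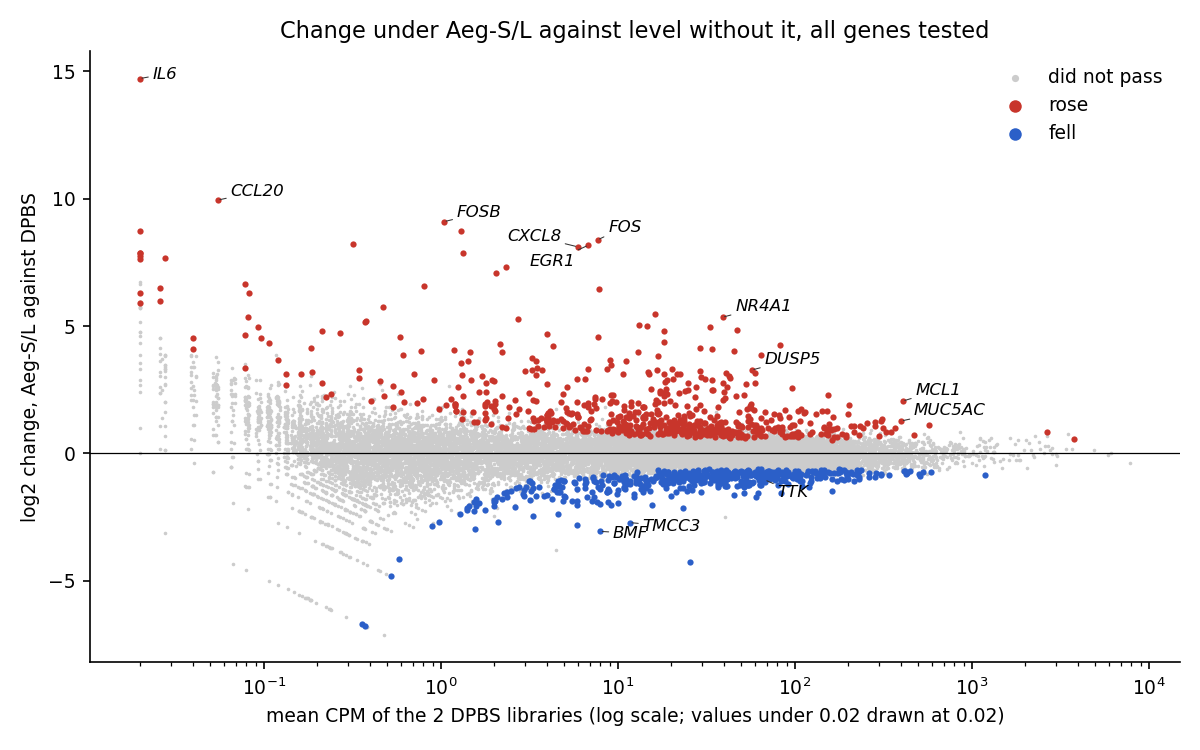
Each point is 1 of the 16962 genes tested, placed by its mean level in the 2 DPBS libraries (CPM, log scale) and its log2 change under Aeg-S/L, with 615 genes that rose in red and 525 that fell in blue. The largest increases, such as IL6, CCL20 and FOSB, lie at low DPBS levels, where the fitted change of a gene at 0 counts depends on the fit and is no measure of size, while most decreases stay above -2.

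Transcription factors of the immediate early class showed the broadest induction. Of 26 named, 25 were tested and 23 rose, with none that fell and a median log2 change of 3.99, beside 0.01 for all genes tested. FOS (ENSG00000170345.5, hg19 chr14:75745477-75748933), a partner in the AP-1 dimer, stood at 8.33 and 7.10 CPM in DPBS and at 2628 and 2540 CPM under Aeg-S/L. Both treated libraries lay far above both mock libraries, a log2 change of 8.39 ± 0.33 (standard error, edgeR's adjusted p = 1.784e-08). Its relative FOSB went from 0.717 and 1.38 to 575 and 586 CPM, a change of 9.10 ± 0.31 (adjusted p = 1.772e-08). The other AP-1 genes were graded. JUN rose by 5.04 ± 0.29 from 14.97 and 11.5 CPM, FOSL1 by 3.23 ± 0.21 from 31.2 and 27.6 CPM, JUNB by 2.62 ± 0.34 and JUND by 1.63 ± 0.37. FOSL2, which was already high at 442 and 405 CPM, did not pass (-0.35 ± 0.18).

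The zinc finger factor EGR1 (hg19 chr5:137801179-137805004) was read at 6.09 and 7.56 CPM in DPBS and at 1954 and 2001 CPM under Aeg-S/L, with no overlap. Its log2 change was 8.18 ± 0.33 (adjusted p = 1.784e-08). EGR2 rose from 0.331 and 0.312 to 96.8 and 98.0 CPM. EGR3 rose from 0.0551 and 0 to 4.93 and 7.49 CPM, and EGR4 was not tested. ATF3, a stress-induced repressor of the CREB and AP-1 family, rose from 2.07 and 2.60 to 382 and 365 CPM (7.32 ± 0.29). The orphan nuclear receptors of the NR4A family started from higher levels: NR4A1 went from 41.5 and 36.8 to 1606 and 1590 CPM and NR4A2 from 84.2 and 80.6 to 1514 and 1598 CPM. NR4A3 went from 17.5 and 19.2 to 347 and 411 CPM. The Krüppel-like factors KLF2, KLF4, KLF6 and KLF10 rose by 2.51 to 4.56, and MAFF and CSRNP1 by 3.99 ± 0.28 and 4.56 ± 0.23. SRF, which itself drives many of these genes, rose by 1.15 ± 0.21. MYC did not pass, with 322 and 291 CPM in DPBS and 359 and 358 CPM under Aeg-S/L (0.23 ± 0.22).

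Chemokines were the list with the highest median, 6.58, although only 9 of 15 matched names had enough counts to be tested. That median is the value of CXCL3, the lowest of the 5 that rose, while the 4 others lay near 0. Members almost silent in DPBS, such as CCL20, passed the count filter only through groups where they were higher, so the median depends on the filter. In NCI-H1437 experiment 3, 7 of 11 tested rose with a median of 1.99, below the 3.38 of immediate early factors there. CXCL1, CXCL2, CXCL3, CXCL8 and CCL20 rose and none fell. CXCL8, the main neutrophil attractant of human epithelium (hg19 chr4:74606223-74609433), went from 5.60 and 6.29 to 1702 and 1593 CPM. This is a log2 change of 8.11 ± 0.32 (adjusted p = 1.784e-08). CXCL2 rose from 1.43 and 1.17 to 542 and 557 CPM, CXCL1 from 1.38 and 1.30 to 321 and 316 CPM and CXCL3 from 0.744 and 0.858 to 76.7 and 77.4 CPM. These 3 neighbours on chromosome 4 are near-identical copies, so the split of fragments among them is uncertain. CCL20, which attracts dendritic cells and Th17 cells through CCR6, had 4 fragments over both DPBS libraries and 58.6 and 54.2 CPM under Aeg-S/L. The 4 remaining tested members, CXCL16, CCL22, CCL26 and CCL28, lay between -0.08 and 0.43 and did not pass.

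Among cytokines and colony-stimulating factors, 5 of 13 tested genes rose and none fell, with a median of 1.55. The list has 21 matched names. Members silent in DPBS, such as IL6, passed the count filter only through groups where they were higher, so this count and median depend on the filter. IL6 (hg19 chr7:22765503-22771621), the acute-phase cytokine, had no count in either DPBS library and 94.4 and 93.5 CPM under Aeg-S/L. Against a floor of 3 counts over the DPBS pair, it was at least 2341-fold higher (adjusted p = 3.434e-06). IL1A, an alarmin stored in epithelial cells, rose from 0.551 and 0.390 to 25.7 and 24.6 CPM, a change of 5.73 ± 0.53. LIF, a cytokine of the IL-6 family, rose from 7.75 and 10.7 to 49.4 and 42.2 CPM. CSF1, the growth factor of macrophages, rose by 1.03 ± 0.22, and IL24 by 1.81 ± 0.48. Neither passed when any 1 of the 4 libraries was left out (adjusted p = 0.09041 to 0.2107 for CSF1 and 0.1951 to 0.339 for IL24). IL11 and IL32 did not pass in the fit of all 10 libraries (adjusted p = 0.1083 and 0.06679), whereas the 4 libraries alone called both, and 9 of 12 tested members in all. IL33, the alarmin that drives type 2 responses, was near the limit of detection, at 0.221 and 0.260 CPM in DPBS and 0.122 and 0.2995 CPM under Aeg-S/L. Outside these lists, IL20, a cytokine of the IL-10 family, rose from 0 and 0.156 to 9.0 and 7.58 CPM. HAMP, which encodes the iron hormone hepcidin, rose from 0 counts to 1.04 and 1.92 CPM, at least 36.8-fold. IL20 did not pass in DESeq2 (adjusted p = 0.2928), and HAMP did not pass with any 1 of the 4 libraries left out (adjusted p = 0.07684 to 0.1456).

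The promoters of 8 of these genes and of 1 gene of the stress response described further on are shown because they hold recognition motifs of the factors named above. Each is the 150 bases before the start site in RefSeq, build GRCh38.p14, written from 5′ to 3′ on the strand of the gene. Capitals mark matches on either strand to an NF-kB motif (CXCL1, CXCL2, CXCL3, CCL20, IL6, TNFAIP3), a CArG box, the motif of SRF (EGR1), an AP-1 motif, TGANTCA (CXCL8), or a cyclic AMP response element, TGACGTCA (PPP1R15A).
CXCL1: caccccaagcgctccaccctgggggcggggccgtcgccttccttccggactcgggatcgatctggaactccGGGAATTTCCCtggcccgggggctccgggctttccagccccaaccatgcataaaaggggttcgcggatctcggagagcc
CXCL2: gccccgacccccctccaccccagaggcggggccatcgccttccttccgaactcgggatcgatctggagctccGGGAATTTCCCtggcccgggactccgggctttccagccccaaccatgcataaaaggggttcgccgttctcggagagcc
CXCL3: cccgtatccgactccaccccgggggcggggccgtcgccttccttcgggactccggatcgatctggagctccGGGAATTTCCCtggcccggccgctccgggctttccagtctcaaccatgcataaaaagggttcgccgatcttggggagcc
CCL20: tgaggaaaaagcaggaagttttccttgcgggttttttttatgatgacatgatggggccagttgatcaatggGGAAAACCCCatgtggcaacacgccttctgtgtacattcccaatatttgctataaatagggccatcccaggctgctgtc
IL6: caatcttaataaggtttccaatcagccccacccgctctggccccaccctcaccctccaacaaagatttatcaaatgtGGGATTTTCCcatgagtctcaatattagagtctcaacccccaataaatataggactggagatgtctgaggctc
TNFAIP3: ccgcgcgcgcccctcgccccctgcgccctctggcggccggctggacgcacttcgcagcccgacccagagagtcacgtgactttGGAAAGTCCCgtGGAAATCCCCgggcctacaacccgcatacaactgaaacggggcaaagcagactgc
EGR1: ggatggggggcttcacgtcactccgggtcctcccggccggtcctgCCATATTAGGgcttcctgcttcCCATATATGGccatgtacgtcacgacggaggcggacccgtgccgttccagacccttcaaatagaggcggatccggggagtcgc
CXCL8: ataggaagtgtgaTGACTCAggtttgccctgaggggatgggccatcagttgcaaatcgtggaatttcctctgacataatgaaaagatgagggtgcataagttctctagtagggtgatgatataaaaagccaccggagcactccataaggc
PPP1R15A: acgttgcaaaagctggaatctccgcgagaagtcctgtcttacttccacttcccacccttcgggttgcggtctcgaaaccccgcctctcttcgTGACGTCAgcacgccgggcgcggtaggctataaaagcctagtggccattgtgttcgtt

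The positions are chr4:73869243-73869392 (plus strand) for CXCL1, chr4:74099196-74099345 (minus) for CXCL2, chr4:74038690-74038839 (minus) for CXCL3, chr4:73740419-73740568 (plus) for CXCL8 and chr2:227813692-227813841 (plus) for CCL20. IL6 lies at chr7:22727050-22727199, TNFAIP3 at chr6:137867109-137867258, EGR1 at chr5:138465329-138465478 and PPP1R15A at chr19:48872271-48872420, all on the plus strand. In CXCL1 and CXCL3 the NF-kB match opens 79 bases before the start site, in CXCL2 78, in CCL20 79 and in IL6 73. In CXCL1, CXCL2 and CXCL3 it counts as 2 overlapping matches, shifted by 1 base. TNFAIP3 holds 2 separate matches that open 67 and 55 bases before the start, and EGR1 holds 2 CArG boxes at 105 and 83. CXCL8 had 0 matches to the NF-kB motif as searched. Its ggaatttcct differs from the match GGAATTTCCC of CXCL1 in the last base alone, so letters without capitals do not mean that no site is there. An NF-kB match stood in 6 of the 14 promoters available for the 15 largest increases, an AP-1 match in 1 and a CArG box in 1. Over all 11481 tested genes with a promoter, 7.21% held the NF-kB motif, against 9.54% of the 461 that rose, 14.1% of the 121 that rose at least 4-fold and 5.50% of the 418 that fell. The cyclic AMP response element was in 2.41% of all, 4.77% of those that rose and 7.44% of those that rose at least 4-fold. The AP-1 motif was in 2.57% of all, 3.25% of those that rose and 1.65% of those that rose at least 4-fold. The CArG box was in 0.688%, 1.95% and 0.826%, and the EGR motif, GCGNGGGCG, in 10.6%, 12.6% and 8.26%. Among the 121 promoters of the larger increases, 17 held the NF-kB motif, 9 the cyclic AMP response element, 10 the EGR motif, 2 the AP-1 motif and 1 a CArG box. With so few promoters, whether any share differs from that of all promoters was not tested. These are counts of letters in a short window and name no bound site.

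**Figure D2:**
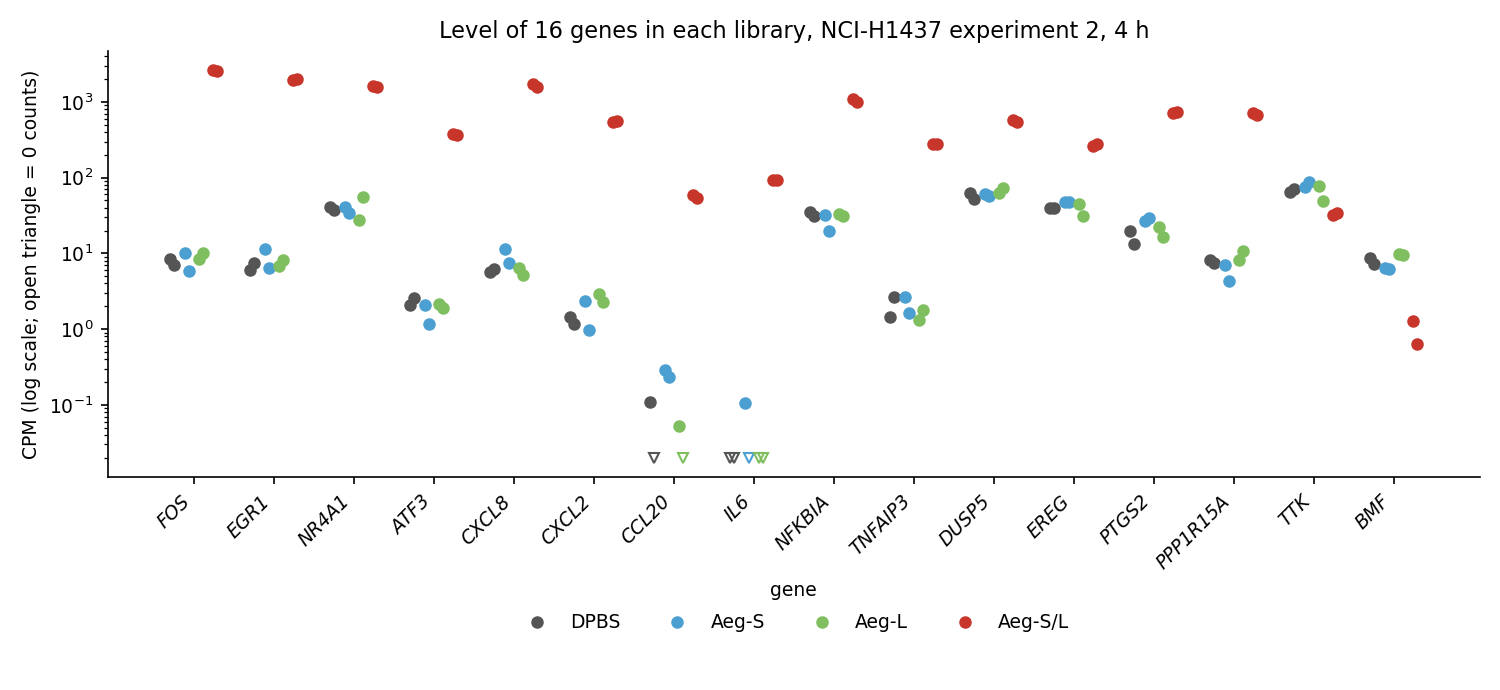
Level of 16 genes (CPM, log scale) in the 2 libraries each of DPBS, Aeg-S, Aeg-L and Aeg-S/L, 1 point per library, with open triangles for 0 counts. For the 14 genes that rose, both Aeg-S/L points (red) lie above the 6 others, which overlap each other in most genes, while TTK and BMF lie below.

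Genes of the NF-kB pathway that restrain it rose together with its subunits. Of 17 tested, 14 rose and none fell, with a median of 1.92. NFKBIA, which encodes the inhibitor IkB alpha (hg19 chr14:35870717-35873955), went from 35.2 and 31.3 to 1094 and 997 CPM, a change of 4.97 ± 0.26 (adjusted p = 2.129e-07). TNFAIP3, which encodes the deubiquitinase A20, went from 1.43 and 2.65 to 278 and 277 CPM (7.08 ± 0.33). NFKBIZ, a nuclear cofactor that IL6 depends on, rose from 4.00 and 3.98 to 103 and 105 CPM, and NFKBIE rose by 3.09 ± 0.28. The subunit genes moved less: NFKB1 rose by 2.08 ± 0.18, NFKB2 by 1.96 ± 0.22, RELB by 1.92 ± 0.33 and REL by 1.85 ± 0.32. The adhesion molecule ICAM1 rose from 2.56 and 1.77 to 43.6 and 41.7 CPM, and BIRC3, an inhibitor of cell death, from 6.76 and 8.08 to 31.7 and 34.4 CPM. TRAF1 passed narrowly (0.94 ± 0.26, adjusted p = 0.04751). TNIP1, CYLD and BIRC2 did not pass (0.60 ± 0.19, 0.33 ± 0.25 and -0.25 ± 0.21).

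The brakes of MAP kinase signalling rose in the same libraries, with 12 of 19 tested genes up, none down and a median of 1.32. DUSP1, a nuclear phosphatase of p38 and JNK, went from 62.8 and 65.9 to 975 and 888 CPM (3.85 ± 0.23, adjusted p = 7.117e-07). DUSP5, specific for ERK in the nucleus, went from 62.3 and 52.4 to 573 and 540 CPM (3.28 ± 0.19). Libraries of the 2 groups did not overlap for either gene. DUSP2, DUSP4, DUSP6, DUSP8, DUSP10 and DUSP16 rose by 0.92 to 2.92. Of the Sprouty and SPRED genes, which restrain receptor tyrosine kinases, SPRY4 alone passed (1.32 ± 0.18), while SPRY1 and SPRY2 were at 0.66 ± 0.32 and 0.79 ± 0.25 and the 3 SPRED genes at 0.06 to 0.97. EPHA2, IER3 and PHLDA1, outputs of ERK, rose by 2.93 ± 0.22, 2.95 ± 0.38 and 2.19 ± 0.20, whereas ETV4 and ETV5 did not pass (0.40 ± 0.20 and 0.03 ± 0.20). Of 7 tested ligands of the EGF receptor, 3 rose. EREG went from 39.7 and 39.1 to 258 and 282 CPM, HBEGF from 7.44 and 5.72 to 48.8 and 50.7 CPM and AREG from 4.797 and 3.17 to 16.9 and 35.3 CPM. AREG did not pass without Aeg-S/L 2 or without DPBS 2 (adjusted p = 0.06258 and 0.07222). TGFA, EGF, BTC and EPGN did not pass, with changes from -0.65 to 0.41.

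Factors that destabilise mRNA or slow growth gave 7 increases among 11 tested, with a median of 0.87. ZFP36, which degrades AU-rich cytokine mRNAs, rose from 17.5 and 16.2 to 240 and 240 CPM (3.83 ± 0.27), and ZC3H12A, an endonuclease that cleaves IL6 mRNA, from 6.07 and 7.49 to 68.4 and 66.5 CPM (3.31 ± 0.37). BTG2 rose from 3.09 and 3.85 to 44.2 and 41.8 CPM and ZFP36L1 by 1.69 ± 0.16. ZFP36L2, TOB1, TOB2 and RC3H1 did not pass. Of the targets of YAP, a factor that reads cell shape and stretch, 5 of 7 rose with a median of 1.90. CCN1 went from 15.7 and 13.5 to 486 and 466 CPM (5.03 ± 0.24) and CCN2 from 2.92 and 2.57 to 102 and 113 CPM (5.28 ± 0.20). AMOTL2, LATS2 and AJUBA rose by 3.13 ± 0.23, 1.90 ± 0.26 and 1.67 ± 0.22, while AXL and CRIM1 did not pass. In prostaglandin synthesis, PTGS2, the inducible cyclooxygenase, rose from 19.4 and 13.1 to 703 and 738 CPM (5.47 ± 0.25), and PTGER4, a receptor of prostaglandin E2, from 1.38 and 1.25 to 8.76 and 13.3 CPM. The other 7 tested genes of that list, among them the constitutive PTGS1 (285 and 269 against 304 and 299 CPM), did not pass. The plasminogen activator PLAU and its receptor PLAUR rose by 3.11 ± 0.31 and 1.98 ± 0.28, and they were the 2 of 14 tested plasminogen, coagulation and protease genes that passed.

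Genes read by calcium and cyclic AMP signals rose in part. Of 11 tested calcineurin and CREB targets, 6 rose, none fell and the median was 0.98. PER1 went from 9.24 and 9.07 to 98.4 and 106 CPM (3.48 ± 0.26), PDE4B from 36.5 and 32.3 to 195 and 197 CPM, and NFIL3 from 19.4 and 18.7 to 92.8 and 97.9 CPM. RCAN1, the calcineurin inhibitor that NFAT induces, rose by 1.33 ± 0.20, SIK1 by 1.24 ± 0.18 and CREM by 0.98 ± 0.17. PER2 and PPP3CA did not pass (-0.46 ± 0.21 and -0.24 ± 0.29). Among 16 tested ion pumps and volume regulators, 4 rose and none fell, with a median of 0.05. SGK1, a kinase that responds to cell volume, went from 1.54 and 1.38 to 22.99 and 22.8 CPM (3.97 ± 0.31), and SLC38A2, an amino acid transporter used to regain volume, from 298 and 322 to 759 and 828 CPM. The sodium pump subunit ATP1B3 rose by 0.85 ± 0.15 and the potassium-chloride cotransporter SLC12A4 by 1.23 ± 0.29. ATP1B3 did not pass with any 1 of the 4 libraries left out (adjusted p = 0.08395 to 0.109). ATP2A2 and STIM1 were at -0.08 ± 0.14 and 0.12 ± 0.17 and did not pass.

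The stress response was selective. PPP1R15A, the phosphatase subunit that reverses eIF2 alpha phosphorylation (hg19 chr19:49375649-49379314), rose from 8.16 and 7.49 to 723 and 662 CPM, a change of 6.47 ± 0.28 (adjusted p = 3.386e-08). Of the other 11 genes of the integrated stress response list, DDIT3, SESN2 and ATF4 rose by 3.02 ± 0.57, 1.42 ± 0.23 and 1.08 ± 0.24, and the list median was 0.49. DDIT3 did not pass without Aeg-S/L 1, DPBS 1 or DPBS 2 (adjusted p = 0.08617, 0.09352 and 0.07025). TRIB3, ASNS and DDIT4, further genes of that pathway, did not pass (0.36 ± 0.17, -0.23 ± 0.18 and 0.18 ± 0.30). Of 12 ER chaperone genes, DNAJB9 passed (0.77 ± 0.20), and HSPA5, the main chaperone of the organelle, stood at 767 and 770 CPM against 763 and 763 CPM. None of 10 heat shock genes passed, with a median of 0.01, and none of 17 annexin, ESCRT and membrane repair genes did, with a median of 0.13. The 4 libraries alone called 4 heat shock genes up and 4 down, and 6 and 3 of the repair genes, all smaller than 0.71 in size. Of 14 NRF2 targets and metallothioneins, SLC7A11 fell (-0.80 ± 0.21, adjusted p = 0.04279), a call lost with any 1 of the 4 libraries left out (0.1397 to 0.3115). Among 10 interferon-stimulated genes, IRF1 rose from 12.5 and 9.85 to 146 and 128 CPM and ISG15 by 1.60 ± 0.24, while IFIT3 fell by 1.61 ± 0.29. IFIT3 did not pass without Aeg-S/L 1 or DPBS 2 (adjusted p = 0.1201 and 0.1061).

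Genes of cell death, cell cycle arrest and TGF-beta feedback moved in both directions. In the BCL2 family, MCL1, a short-lived survival protein, rose from 398 and 419 to 1682 and 1723 CPM (2.06 ± 0.15, adjusted p = 2.64e-06). The pro-death gene PMAIP1 rose by 1.83 ± 0.24 and BAK1 by 0.71 ± 0.19. BMF, another pro-death gene, fell from 8.80 and 7.17 to 1.29 and 0.629 CPM, so that all its treated values lay below the mock ones. Of 11 p53 targets and GADD45 genes, 6 rose and 3 fell. GADD45B rose by 3.22 ± 0.38, PLK2 by 2.90 ± 0.19 and CDKN1A, an inhibitor of cyclin-dependent kinases, from 17.2 and 16.5 to 73.4 and 63.4 CPM. MDM2, the ubiquitin ligase of p53, fell from 85.5 and 90.6 to 37.2 and 45.8 CPM, and SESN1 and TP53INP1 fell by 1.01 ± 0.24 and 2.13 ± 0.54. Of 14 genes of TGF-beta, BMP and Notch feedback, 6 rose with a median of 0.88, led by ID2 (3.31 ± 0.21) and HES1 (39.5 and 42.1 to 387 and 350 CPM). Of 11 mucin and goblet genes, MUC5AC rose from 467 and 335 to 806 and 1137 CPM (1.28 ± 0.22) and MUC5B by 0.98 ± 0.22. These are the gel-forming mucins of the airway. Left without any 1 of the 4 libraries, MDM2, SESN1 and MUC5B did not pass (adjusted p = 0.05323 to 0.1715, 0.1297 to 0.2265 and 0.05184 to 0.2782). MUC5AC did not pass without Aeg-S/L 2 or without DPBS 2 (0.07836 and 0.09215).

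**Figure D3:**
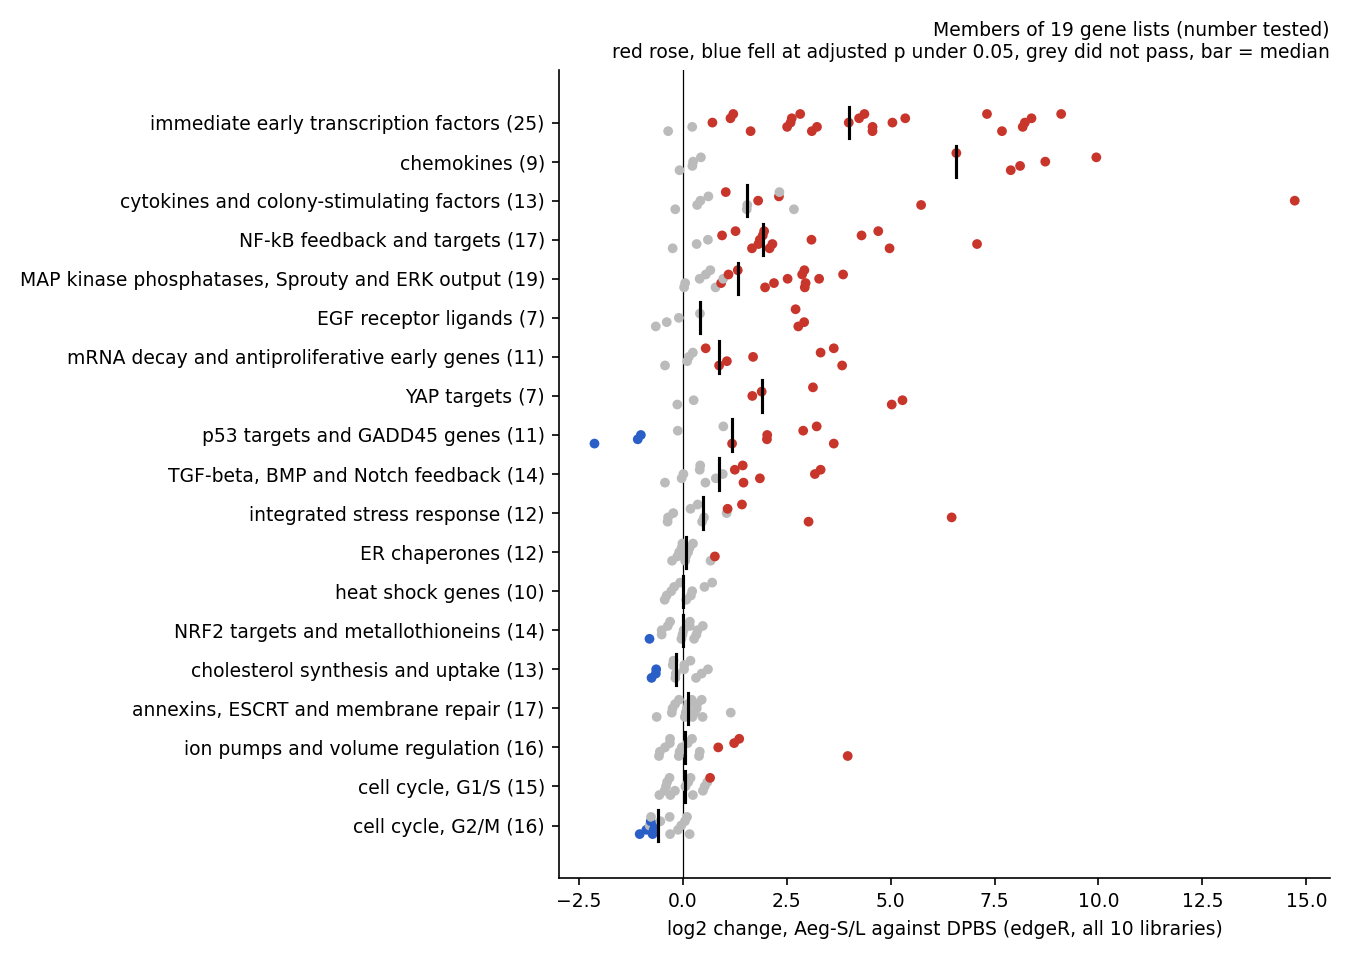
Log2 change under Aeg-S/L of every tested member of 19 gene lists, 1 point per gene, with the number tested in brackets and a black bar at the median. By median, immediate early factors and chemokines lie farthest to the right (3.99 and 6.58), although only 5 of the 9 chemokines rose. ER chaperone, heat shock and membrane repair genes sit around 0, and G2/M genes lie to the left (median -0.60).

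The fit of the 4 libraries alone, in which 22.6% of all genes rose and 22% fell, called more members of most lists. It called 8 increases and 3 decreases among 12 integrated stress response genes, 7 and 2 among 12 of the BCL2 family, 9 and 1 among 14 of TGF-beta, BMP and Notch feedback and 7 and 2 among 11 calcineurin and CREB targets. Among 16 ion pumps it called 7 and 5, among 11 mucins 5 and 1, among 9 prostaglandin genes 4 and 1 and among 12 plasminogen and protease genes 5 and 1. Calls were spread over both directions for 4 and 4 of 10 interferon-stimulated genes and 4 and 5 of 14 NRF2 targets. The same held for 3 and 6 of 13 in cholesterol synthesis and 5 and 7 of 15 G1/S genes. It also called 1 decrease each among the immediate early factors, the NF-kB genes, the EGF receptor ligands and the mRNA decay genes, where the fit of 10 libraries called none.

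Levels can be compared between genes only per length of transcript. Per kb of annotated exon, FOS was the highest of the induced genes named here, at 798 CPM per kb, up from 2.38. CXCL8 reached 724.5 from 2.61, EGR1 630.2 from 2.18, DUSP1 461 from 31.9 and NFKBIA 441 from 14.02. MCL1, NR4A2 and CXCL2 followed at 404, 392 and 366 CPM per kb. IL6, with the largest relative increase, reached 34.7 CPM per kb, about as much as CXCL3 at 34.7.

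Genes that fell were expressed at higher levels and were longer than those that rose. Their median DPBS level was 35.0 CPM, against 18.2 CPM for genes that rose and 13.7 CPM for all genes tested. The DPBS level is also the baseline of the change. A fall needs counts in DPBS to be called, while 55 genes rose from under 1 CPM, so the difference in level depends partly on the calling. The median gene span of genes that fell was 46.9 kb, against 19.8 and 24.1 kb. The G2/M genes of the cell cycle were the list that fell most clearly: 6 of 16 fell, none rose, and the median was -0.60. TTK, a kinase of the spindle checkpoint, went from 64.7 and 71.3 to 31.8 and 34.4 CPM (-1.04 ± 0.21, adjusted p = 0.01346), and TOP2A, a topoisomerase of dividing cells, from 494 and 534 to 263 and 296 CPM (-0.88 ± 0.18). CCNA2, KIF11, BUB1B and KIF20A fell by 0.67 to 0.77, while CCNB1, CDK1 and PLK1 did not pass (-0.12 to 0.05). In the 4 libraries alone, 11 of the 16 fell. With any 1 of the 4 libraries left out, TTK and TOP2A did not pass (adjusted p = 0.07794 to 0.1536 and 0.08012 to 0.1822), and their changes stayed between -0.82 and -1.12. In such bulk libraries, fewer cells in G2 and less of each RNA per cell cannot be told apart. Of 15 G1/S genes, CDC25A rose (0.66 ± 0.17) and none fell. In cholesterol synthesis, SQLE and INSIG1 fell by 0.75 ± 0.16 and 0.64 ± 0.16, and none of 13 tested genes rose.

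The largest single decreases were in genes of low level. Next to BMF they were DDIT4L (5.32 and 6.47 to 0.857 and 0.809 CPM), TMCC3 (11.3 and 12.2 to 1.81 and 1.77 CPM), the glucose transporter SLC2A12 (5.38 and 3.87 to 0.827 and 0.958 CPM) and the nuclear receptor NR5A2 (2.12 and 2.08 to 0.459 and 0.1797 CPM). The receptor tyrosine kinase gene KIT fell by 2.27 ± 0.49, the factor FOXN1 by 2.39 ± 0.55 and ZNF681 by 2.98, each from under 2 CPM. KIT and FOXN1 did not pass with any 1 of the 4 libraries left out (adjusted p = 0.05015 to 0.1645 and 0.09595 to 0.1938). RUSC1-AS1 fell by 2.45 ± 0.53, but it is antisense to another gene and the library kit does not mark strand, so the reads of the 2 cannot be told apart. The last of the 10 has no symbol in the reference, and its DPBS libraries were at 47.9 and 3.02 CPM, so that 1 library holds most of its level. Zinc finger genes of chromosome 19 had 7 decreases and 2 increases among 193 tested, with a median of -0.36. The share that fell was near the 3.1% of all genes. The 4 libraries alone called 45 of 179 down and 15 up, beside 22% and 22.6% of all genes.

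Base composition moved with the change. The log2 change under Aeg-S/L had a Spearman correlation of 0.49 with the GC content of the transcript over 16436 genes, which are not independent and share all libraries. Genes that rose had a median GC content of 53.4%, genes that fell 41.6% and all tested 48.8%. When the genes were divided into 5 equal groups by GC content, 68 rose and 239 fell in the group of lowest content, and 193 rose and 7 fell in that of the highest. The same correlation also appeared between libraries of 1 group, with -0.29 for DPBS 2 against DPBS 1, -0.23 within Aeg-S/L and 0.72 for Aeg-L 2 against Aeg-L 1. In NCI-H1437 experiment 3 the correlation with the Aeg-S/L change was 0.27. The zinc finger and G2/M lists lay at the low end, with median GC contents of 42.8% and 43.2%. After an offset for GC content in each library, 749 genes rose and 606 fell, and 509 of the 615 and 420 of the 525 were called again, none with the opposite sign. The median changes became 1.20 and -0.75. The counts for immediate early factors (23 of 25) and chemokines (5 of 9) were the same with the offset, 5 G2/M genes fell with a list median of -0.35, and the list median of the zinc finger genes was -0.22. MUC5B, SLC7A11 and KIF11 no longer passed (adjusted p = 0.3902, 0.07499 and 0.07125), nor did TRAF1, BAK1 and TP53INP1 (0.09577, 0.09355 and 0.07421).

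The single proteins were tested against the same DPBS libraries. Neither Aeg-S nor Aeg-L alone gave a called gene among the 16962 (0% for each protein in either direction) by edgeR, with 1491 and 186 genes at an unadjusted p under 0.05. DESeq2 called 1 gene up and 2 down for Aeg-S, and none for Aeg-L. Without Aeg-S 1, the remaining library Aeg-S 2 gave 605 increases and 939 decreases. FOS stood at 10.0 and 5.87 CPM under Aeg-S and at 8.43 and 9.97 CPM under Aeg-L. CXCL8 stood at 11.5 and 7.51 CPM and at 6.45 and 5.24 CPM, and IL6 had counts in Aeg-S 1 alone (0.104 CPM). All these values were within a few CPM of the DPBS libraries and far under the Aeg-S/L libraries. For the 615 increases of the joint treatment, the median change was -0.06 under Aeg-S and 0.08 under Aeg-L. For the 525 decreases it was 0.16 and -0.08. The 3 comparisons share the DPBS libraries.

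The joint effect was also compared with the sum of the single effects on the log2 scale. Of 16962 genes, 282 lay above the sum (1.66%) and 147 below it (0.867%). Of the 615 genes that rose, 259 lay above the sum and 1 below, and of the 525 that fell, 134 lay below and none above. FOSB exceeded the sum by 8.998 ± 0.41 (adjusted p = 3.46e-07), nearly its whole increase. EGR2, at 0.0576 to 0.156 CPM under Aeg-S and 0.0520 to 0.399 CPM under Aeg-L, exceeded it by 10.30 ± 1.08. CCL20, IL20 and SNX32 were also among the 5 largest, but had almost no counts under the single proteins, so no size is given. TMCC3, BMF, KIT and ZNF681 lay below the sum by 2.93 to 3.14. TMCC3 stood at 12.1 and 16.9 CPM under Aeg-S and 13.5 and 12.1 CPM under Aeg-L, against 1.81 and 1.77 CPM under both together. Of the lists, 19 of 25 immediate early factors, all 5 induced chemokines and 12 of 17 NF-kB genes lay above the sum. Without Aeg-S 2 and Aeg-L 2 the counts were 3383 above and 3188 below, without Aeg-L 2 alone 2343 and 2030, and without Aeg-S 1 alone 1622 and 1380.

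Aeg-S/L was given to NCI-H1437 again in experiment 3, with its own DPBS libraries. That experiment also held 2 libraries each of Aeg-S/L with BAPTA-AM and Aeg-S/L with EGTA, which entered the estimate of the spread. There 2596 of 16904 genes rose (15.4%) and 2670 fell (15.8%). Of the 615 genes that rose in experiment 2, 614 were tested in experiment 3 and 594 rose. These are 96.6% of the experiment 2 list and 22.9% of the longer experiment 3 list. Of the 525 that fell, 493 fell again (93.9% and 18.5%), and no gene was called in opposite directions. The sizes were close: the genes that rose had a median of 1.19 in experiment 3 against 1.33, and those that fell -0.78 against -0.95. Over the 1138 called genes tested in both, the log2 changes had a Pearson r of 0.95, and over all 16338 shared genes 0.68. The test of the difference between experiments called 0 of 17805 genes (0%) by edgeR, with 465 at an unadjusted p under 0.05 and 1 by DESeq2. Fitted on the 8 libraries concerned alone, it called 160 genes higher and 105 lower in experiment 2. FOS rose by 8.40 in experiment 3 and BMF fell by 3.23, next to 8.39 and -3.06. IL6 was at 0 in both DPBS libraries there too and at 125 and 126 CPM under Aeg-S/L. HBEGF rose from 6.99 and 6.42 to 73.3 and 71.7 CPM, and TTK changed by -0.89.

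The same proteins were given to NCI-H292, another epithelial lung cancer line, in its own experiment. The name of that deposited table says ALT, the extract of Alternaria alternata, while the sample labels say Aeg-S/L, and the labels were followed. Line and experiment cannot be told apart here. The NCI-H292 experiment also held 2 libraries each of Aeg-S/L with BAPTA-AM and Aeg-S/L with EGTA, which entered the estimate of the spread. In NCI-H292, 3628 of 16380 genes rose (22.1%) and 3453 fell (21.1%). Of the 615 genes that rose in NCI-H1437, 600 were tested in NCI-H292 and 487 rose there (79.2% of the NCI-H1437 list and 13.4% of the NCI-H292 list), while 24 fell. Of the 525 that fell, 410 fell in NCI-H292 (78.1% and 11.9%) and 3 rose. The test of the difference called 267 of 18606 genes higher in NCI-H1437 (1.44%) and 266 lower (1.43%). Of the 10 genes farthest apart by that test, 8 had a group at 3 counts or fewer, IL6 among them, and no size is given for these.

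Of 26 immediate early factors, the change was higher in NCI-H1437 for 2 (JUNB, which fell in NCI-H292, and ATF3) and lower for 4 (FOSL1, KLF4, MYC and BHLHE40). Among the largest increases of both lines, FOS rose by 8.39 and 9.003, EGR1 by 8.18 and 8.08, FOSB by 9.10 and 9.37 and CXCL8 by 8.11 and 8.79, and none of these differences passed (adjusted p from 0.3535 to 0.9866). The ERK feedback genes were the list with the most differences by count, 7 of 19, all of them smaller in NCI-H1437. By share, 2 lists of 11 genes had more. These were p53 targets and GADD45 genes, with 3 higher and 2 lower, and calcineurin and CREB targets, with 2 higher and 3 lower. DUSP6 went from 16.3 and 14.5 to 89.8 and 86.9 CPM in NCI-H1437 and from 5.39 and 6.03 to 188 and 184 CPM in NCI-H292, a difference of -2.52 ± 0.30 (adjusted p = 0.0001131). SPRY4 differed by -3.04 ± 0.37 and HBEGF, an EGF receptor ligand, by -2.19 ± 0.26. MYC, which did not pass in NCI-H1437, went from 43.4 and 37.7 to 209 and 207 CPM in NCI-H292, so that both lines ended within a 2-fold range of each other. Of 17 NF-kB genes, 4 rose more in NCI-H1437: ICAM1 (by 2.43 ± 0.24), BCL3, NFKB2 and NFKBIA. BTG2 differed by 3.10 ± 0.26. It rose from 101 and 101 to 143 and 145 CPM in NCI-H292, where its mock level already exceeded the treated level in NCI-H1437. Of 14 NRF2 targets, 5 were higher in the difference. HMOX1, a heme-degrading enzyme, went from 432 and 388 to 332 and 305 CPM in NCI-H1437 (adjusted p = 0.3575) and from 77.3 and 79.8 to 2.92 and 2.87 CPM in NCI-H292, a difference of 4.38 ± 0.30 (adjusted p = 2.368e-07). IL6 reached nearly the same level in both lines, 94.4 and 93.5 CPM against 99.1 and 106 CPM, from 0 in NCI-H1437 and from 0.685 and 0.586 CPM in NCI-H292.

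**Figure D4:**
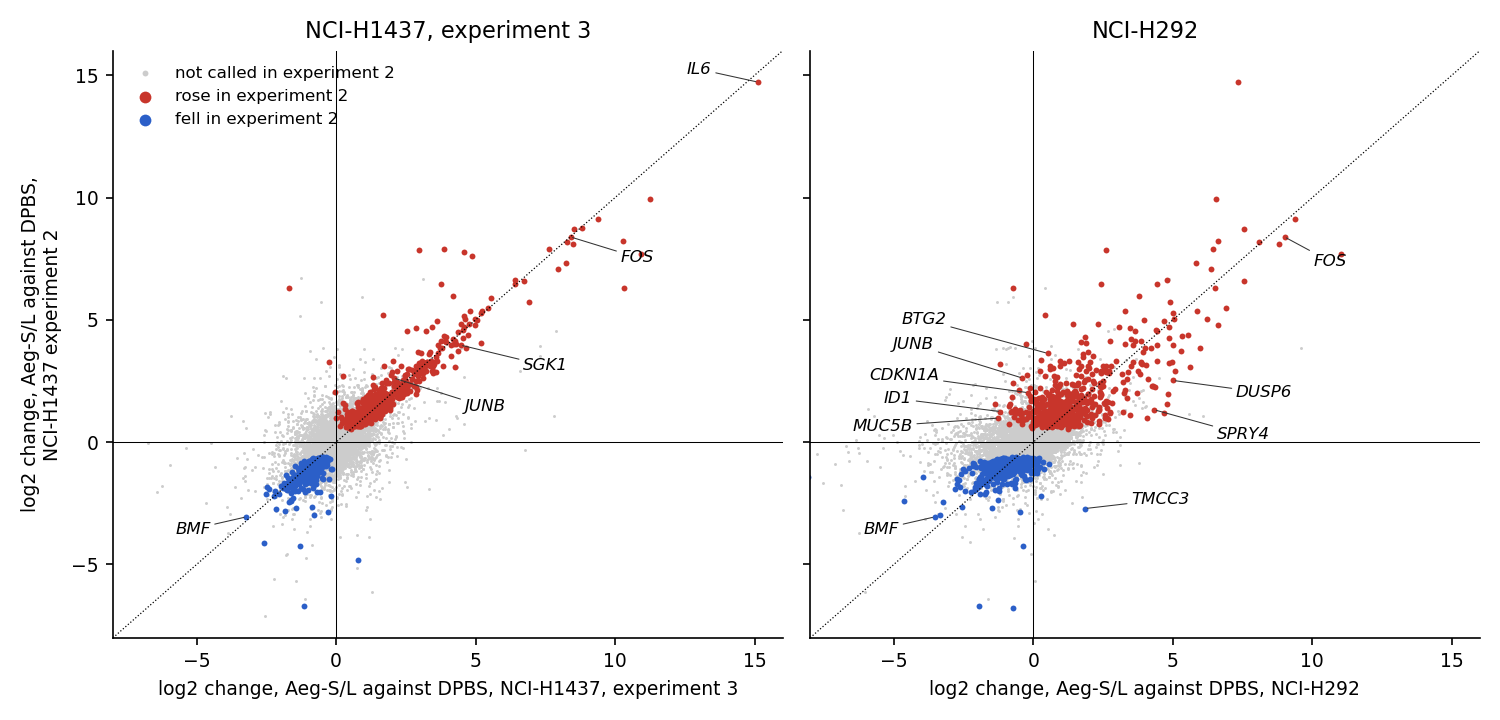
Log2 change under Aeg-S/L in NCI-H1437 experiment 2 (vertical) against experiment 3 (left) and NCI-H292 (right), 1 point per gene, with genes called in experiment 2 in color and a dotted line at equal change. Colored points follow the line on the left, with 0 called in opposite directions, and scatter more on the right, where TMCC3 fell in NCI-H1437 and rose in NCI-H292.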

How the data were processed

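Libraries of total RNA were built with the NEBNext Ultra RNA kit, which does not mark strand, per the labels' protocols. Per the submitters' processing notes, tools were HISAT2 2.2.1, SAMtools and featureCounts 2.0.2, with DESeq2 1.36.0 in R 4.2.2 and build hg19. The authors deposited raw counts of fragments per gene, which were used as they stand; 51996 of 57820 gene IDs matched a symbol, and 0 columns were left unused.

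All 10 libraries of the experiment were fitted with edgeR 4.0.16 in R 4.3.3 (filterByExpr, TMM, quasi-likelihood F test, 1 coefficient per group), with p adjusted by Benjamini-Hochberg over all genes tested and calls at under 0.05. Standard errors are the absolute log2 change over the square root of F. Joint fits of 18 libraries gave the differences from experiment 3 and NCI-H292, and included the Tra, BAPTA-AM and EGTA libraries. CPM uses TMM-scaled library sizes. For genes with 0 counts in DPBS, the fold is taken against 3 counts over the group, which covers counting error only.

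Named genes are members of 31 lists, the 15 largest increases and 10 largest decreases called (1 CPM or more in one group, libraries not overlapping), and up to 5 per direction in the other contrasts. The comparison, lists and rule were chosen with earlier results of these data known. The GC offset and the fit without Aeg-S 2 and Aeg-L 2 were added after seeing the data. The other alternatives were DESeq2 1.42.0, its size factors, no low-count filter, the contrast's groups alone, a replicate block and leaving out each library. The fit was tested on simulated data, with 100 genes changed by a log2 change of 1 and 100 by 2, all above a low-count limit. It called 59% and 96% of these, and 15 of its 170 calls were false. Each simulated gene had the same spread in every group, whereas the real Aeg-S and Aeg-L pairs were wider than the others. These rates may therefore not hold for the real libraries. The names CCL5, SOD2, DUSP14, ORAI1 and PECAM1 matched no ID. Some genes are not reported here.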

Additional observations from a re-analysis of the deposited data

Results flagged for a closer look

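The effect of Aeg-S/L differed between NCI-H1437 and NCI-H292, by edgeR's test of the difference, with opposite directions in the 2 lines for 6 named genes. The test also called FOXJ1, which was too low to be tested in NCI-H1437 alone, so no direction is given for it there. TMCC3 fell from 11.3 and 12.2 to 1.81 and 1.77 CPM in NCI-H1437 and rose from 12.3 and 11.6 to 43.8 and 43.0 CPM in NCI-H292, a difference of -4.60 ± 0.26 (adjusted p = 1.534e-08). Its mock levels were alike in both lines. In experiment 3 of NCI-H1437 it fell by 2.16 ± 0.26. JUNB rose to 264 and 244 CPM in NCI-H1437 and fell from 655 and 644 to 502 and 488 CPM in NCI-H292 (difference 2.99, adjusted p = 0.0003031). CDKN1A rose to 73.4 and 63.4 CPM and went from 523 and 542 to 463 and 467 CPM in NCI-H292 (difference 2.196, adjusted p = 1.364e-05). For these 2 genes the NCI-H292 libraries stayed above the NCI-H1437 libraries under either treatment. ID1, an inhibitor of differentiation factors, rose by 1.25 and fell by 1.18 (difference 2.41, adjusted p = 0.0001217). The gel-forming mucin MUC5B rose by 0.98 and fell by 1.25 (difference 2.21, adjusted p = 0.0007114), and the CREB-family factor CREM rose by 0.98 and fell by 0.39 (difference 1.35, adjusted p = 0.001038). FOXJ1, the regulator of ciliated cells, stood at 0.138 and 0.260 CPM in DPBS and 0.122 and 0.0599 CPM under Aeg-S/L in NCI-H1437, and rose from 0.804 and 0.810 to 13.0 and 11.9 CPM in NCI-H292 (difference -5.07, adjusted p = 0.01626). In all, 27 genes were called in opposite directions with the difference called, and 24 of them rose in NCI-H1437.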

How the results depend on the processing

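The number of genes called depended on how the spread was estimated. The 1140 calls under Aeg-S/L became 7031 with only the groups of the contrast, 6442 without Aeg-S 2 and Aeg-L 2, 1931 with DESeq2, 2143 with no filter on low counts and 269 to 337 when any 1 of the 4 libraries was left out, where the lone library is assumed to vary like the other groups. The 0 calls under Aeg-S became 3 with DESeq2, 278 without the filter and 0 to 1544 with 1 library left out (1544 without Aeg-S 1). The 0 calls under Aeg-L became 9 without the filter and 0 to 1 with 1 library left out. The 429 calls against the sum became 240 with only the groups of the contrast, 6571 without Aeg-S 2 and Aeg-L 2, 1420 with DESeq2, 1913 without the filter and 148 to 4373 with 1 library left out (4373 without Aeg-L 2, 3002 without Aeg-S 1). The 0 calls between experiments 2 and 3 became 265, 262, 1 and 25 in the same order, and stayed at 0 with any library left out. The 533 calls between the lines became 4174, 3434, 1022 and 952 in that order, and 201 to 233 with 1 library left out. The cause was not tested beyond these settings. With a replicate block the counts were 853, 0, 0, 301, 0 and 356. The labels share only numbers, and Aeg-S/L and DPBS libraries of 1 number hardly deviated together (correlation 0.05), so the libraries were not treated as paired.

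Of 64 named genes recomputed, 62 were called. None reversed under any setting run. The block ended the calls of IL24 and SLC7A11, DESeq2 that of IL20 and the GC offset those of MUC5B and SLC7A11. IL11 and IL32 passed without the filter, with DESeq2, in the 4 libraries alone and without Aeg-S 2 and Aeg-L 2. Leaving out 1 library ended 14 to 18 calls. Those of ATP1B3, CSF1, FOXN1, HAMP, IL24, KIT, MDM2, MUC5B, SESN1, SLC7A11, TOP2A and TTK were lost whichever of the 4 was left out. DDIT3 passed only without Aeg-S/L 2 (adjusted p = 0.03628) and RUSC1-AS1 only without DPBS 1 (0.01133). IFIT3 was lost without Aeg-S/L 1 or DPBS 2 (0.1201 and 0.1061), SLC2A12 and ZNF681 without Aeg-S/L 1 (0.0787 and 0.05778) and NR5A2 without Aeg-S/L 2 (0.08106). HAMP has no adjusted p in DESeq2.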

Other observations

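Transcripts of the mitochondrial genome, which are read from both strands of a circular DNA outside the nucleus, had 0 calls among 16 tested under Aeg-S/L, with a median log2 change of 0.32. Their summed level was 16580 CPM in DPBS 1 and 29480 CPM in DPBS 2, against 28540 and 32700 CPM under Aeg-S/L, so the spread between the mock libraries was as wide as the difference between the groups. In experiment 3, 13 of the 16 rose, with a median of 0.79, and in NCI-H292 3 rose and 7 fell.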
